A study of Rattus norvegicus with 100 samples.

Results

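Solute carriers are the membrane proteins that move amino acids, sugars, phosphate, metals, ions and metabolites across the plasma membrane and organelle membranes. On the rat microarray used here they were taken as the probe sets that name a single gene whose symbol starts with Slc and a digit, without Slc2a1, and that carried a value on 50% or more of the arrays of a tissue. A total of 173 probe sets of 150 genes qualified, of 280 such probe sets of 227 genes on the array and of 12783 single-gene probe sets of 10411 genes in all. In the uterus 132 carriers qualified, in the pituitary 122, and 104 of these in both tissues. The remaining 77 carrier genes had no qualifying probe set, and 61 of the carrier probe sets were blank on all 100 arrays. The choice used no treatment effect, only how often a probe set had a value.

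The arrays came from a uterotrophic assay, a test in which immature female rats receive a substance and the growth response of the uterus shows whether it acts as an estrogen. One set of rats received ethinylestradiol (EE), a synthetic estrogen, and the other set formed the control. Uterus was taken at 2, 4, 8, 24, 28, 48 and 72 h with 5 arrays of EE and 5 of control at each time, and pituitary at 4, 8, 24, 48 and 72 h with 3 and 3. The sources used here do not state the age, strain, dose, route, number of doses or the treatment of the control rats. No label says which arrays share an animal, so the p-values measure the spread between the arrays as deposited.

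Carriers fall into families by sequence, and the members of a family often share a class of substrate. The SLC7 light chains import amino acids and several of them, Slc7a5 included, reach the cell surface only as a dimer with the heavy chain Slc3a2. The SLC25 family lies in the inner mitochondrial membrane, the SLC35 family brings nucleotide sugars into the Golgi and endoplasmic reticulum, and the SLC30 and SLC39 families move zinc out of and into the cytosol. The uterus answers an estrogen first with water uptake and protein synthesis and later with cell division, and each of these draws on transport of ions, nutrients and metabolites.

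The arrays of a tissue resembled each other in depth: between 9338 and 10677 of 15923 probe sets had a value in the uterus and between 9318 and 10135 in the pituitary, and the median intensity lay between 94.6 and 107.7 in the uterus and between 103.3 and 109.7 in the pituitary. The tissue labels fitted their markers in level. Of the pituitary hormone genes, Prl, Gh1, Cga and Fshb had values on all 30 pituitary arrays and on no uterine array, and Pomc had a value on 1 pituitary array. Tshb and Lhb had values on 51 and 50 of the 70 uterine arrays as well, but with means of 13.7 and 45.4 there against 3137 and 2627 in the pituitary. The smooth muscle gene Acta2 had values on all arrays of both tissues, with means of 2162 in the uterus and 68.7 in the pituitary, and Myh11 had values on all 70 uterine arrays (mean 2203) and on 5 of the pituitary. Marker sums count a blank cell as 0. In the EE uterus the summed intensity of 12 epithelial markers was 1727 to 3307 on the control arrays and 7055 to 10062 on the EE arrays at 72 h, and 9 of the 12 passed the test higher there. The macrophage markers summed to 943 to 1303 in the control and 3387 to 5592 in the EE uterus at 72 h, with 5 of 5 tested genes higher. The endothelial markers summed to 402 to 499.9 and 229 to 306, with 2 of 4 lower. Over all genes 23.4% were higher and 36.7% lower at 72 h, and 2 of 4 cannot be told apart from that share. In these bulk samples fewer cells of a type and less RNA per cell cannot be told apart.

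EE moved carriers in the uterus in both directions from 4 h on. Each EE group was compared with the control of its time on log2(intensity + 30.4), so that a difference of 1 is a doubling at high intensity and understates the change of a dim gene. Differences are given with their standard error (±), and a carrier passed where the limma p adjusted over all genes tested was under 0.05. At 2 h 6 carriers were higher and 5 lower of 125 tested (against 4.01% and 2.36% of all genes, 6.37% in sum). At 4 h 36 were higher and 40 lower of 119 (23.6% and 34.4% of all genes, 58% in sum), and at 8 h 39 and 38 of 116 (28.8% and 35.4% of all genes, 64.2% in sum). At 24 h the counts were 23 and 36 of 119 (24.9% and 34.3% of all genes, 59.3% in sum), and at 28 h 31 and 40 of 119 (28.5% and 34.3% of all genes, 62.8% in sum). At 48 h they were 26 and 33 of 122 (24.1% and 32.9% of all genes, 57% in sum), and at 72 h 25 and 33 of 116 (23.4% and 36.7% of all genes, 60.1% in sum). In percent, 63.9% of the carriers passed at 4 h and 66.4% at 8 h, against 49.6% at 24 h, 48.4% at 48 h and 50% at 72 h, so the share lay above that of all genes at 4 h and below it at 24, 48 and 72 h. Whether carriers differ from other genes was not tested, nor was any substrate group, and the groups hold few genes each. The 2 h count of 11 fell to 6 without control replicate 5 and to 5 without control replicate 6 or EE replicate 12. The median difference over the carriers stayed between -0.10 and 0.02 at all 7 times, and over all genes between -0.08 and -0.02.

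**Figure D1:**
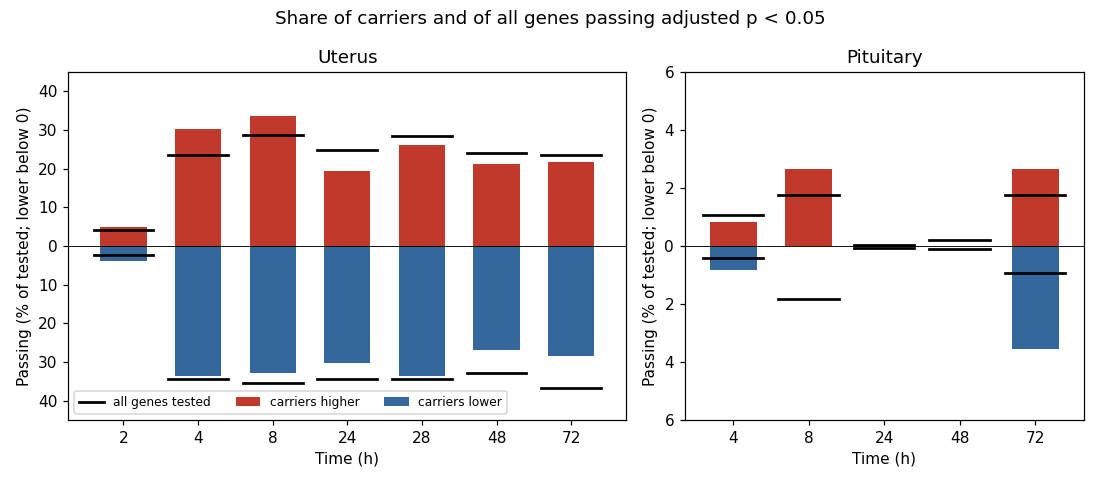
Share of carriers passing adjusted p under 0.05 by time in uterus (left) and pituitary (right), higher in EE above 0 and lower below 0, in percent of carriers tested. Black lines give the same share over all genes tested, such as 23.6% higher and 34.4% lower in the uterus at 4 h; the pituitary axis is much narrower.

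The split between higher and lower carriers moved with the scaling at some times. The EE arrays had lower median intensities on average than the controls at all 7 times. The means were 96.8 ± 1.26 against 102.0 ± 1.91 at 24 h (SD, n = 5 each) and 98.4 ± 2.30 against 102.6 ± 1.07 at 72 h. They were 99.1 against 103.2 at 4 h, 98.6 against 102.9 at 28 h and 97.9 against 101.1 at 48 h, and closer at 2 and 8 h. No difference passed an exact permutation test after adjustment. The adjusted p was 0.0635 at 24 and 72 h, where the unadjusted 0.00794 is the smallest that 5 against 5 arrays allow. With each array centred on its median, the split went from 23 higher and 36 lower to 31 and 30 at 24 h, from 25 and 33 to 33 and 29 at 72 h, and from 6 and 5 to 9 and 3 at 2 h. Of the 131 uterine carriers that could be tested, 114 passed at some time, 44 of them in the higher direction only, 54 in the lower direction only and 16 in both. The same count was not made over all genes, of which 57% to 64.2% passed at each single time from 4 h on. A limma F test found an effect at any time for 94 of 103 carriers tested at every time (91.7% of all genes). No carrier was higher at all 7 times, and Slc1a3 and Slc22a17 were lower at all 7, a count that was not made over all genes either.

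The largest early rise was in an amino acid carrier. Slc7a5, the light chain that imports leucine and other large neutral amino acids, had intensities of 31.8, 38.2, 38.2 and 39.9 on the 4 control arrays with a value at 4 h and of 169, 198, 216, 223 and 244 on the EE arrays. Every EE array was far above every control. The difference was 1.83 ± 0.10 (limma adjusted p = 1.33e-22), a 3.55-fold rise on this scale, and it was 1.77 ± 0.09 at 8 h and 0.63 ± 0.10 at 24 h, all passing, then 0.14 and 0.11 at 48 and 72 h, not passing. At 28 h too few arrays had a value for a test.

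Slc7a1, which carries arginine and lysine, stood at 93, 96.6, 101, 110.3 and 116 in the 4 h controls and at 317, 326, 330.1, 337 and 416 with EE. The groups were far apart, and 1 EE array stood above the other 4. The rise was 1.49 ± 0.09 (limma adjusted p = 2.09e-21) at 4 h and 1.16 ± 0.09 at 8 h, -0.12 at 24 h (not passing), and 0.54 ± 0.09 at 28 h (passing). At 72 h Slc7a1 was lower, at -0.38 ± 0.09, and passed. A further probe set of the gene rose by 1.27 at 4 h and 0.94 at 8 h.

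Slc3a2, the heavy chain that several light chains need, read 209.9, 218, 232, 232 and 238 in the 4 h controls and 346, 348, 415, 466 and 502 with EE. Every EE array was higher than every control array. Its difference was 0.79 ± 0.07 (limma adjusted p = 7.69e-15) at 4 h, after 0.39 at 2 h where it had already passed, and it was 0.77 at 8 h; at 48 and 72 h it was lower, at -0.39 and -0.36, both passing. The light chain Slc7a6 read 36.6, 38.3, 44.2, 46.4 and 47.9 in the control and 62.4, 94.2, 103, 111 and 116 with EE at 4 h, again without overlap, a difference of 0.79 ± 0.09 (limma adjusted p = 1.38e-11). The neutral amino acid carriers Slc1a5 and Slc38a1 rose as well, by 0.71 and 0.77 at 4 h; Slc1a5 was still at 0.61 at 28 h and was called lower at 72 h (-0.37), whereas Slc38a1 no longer passed from 24 h on.

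**Figure D2:**
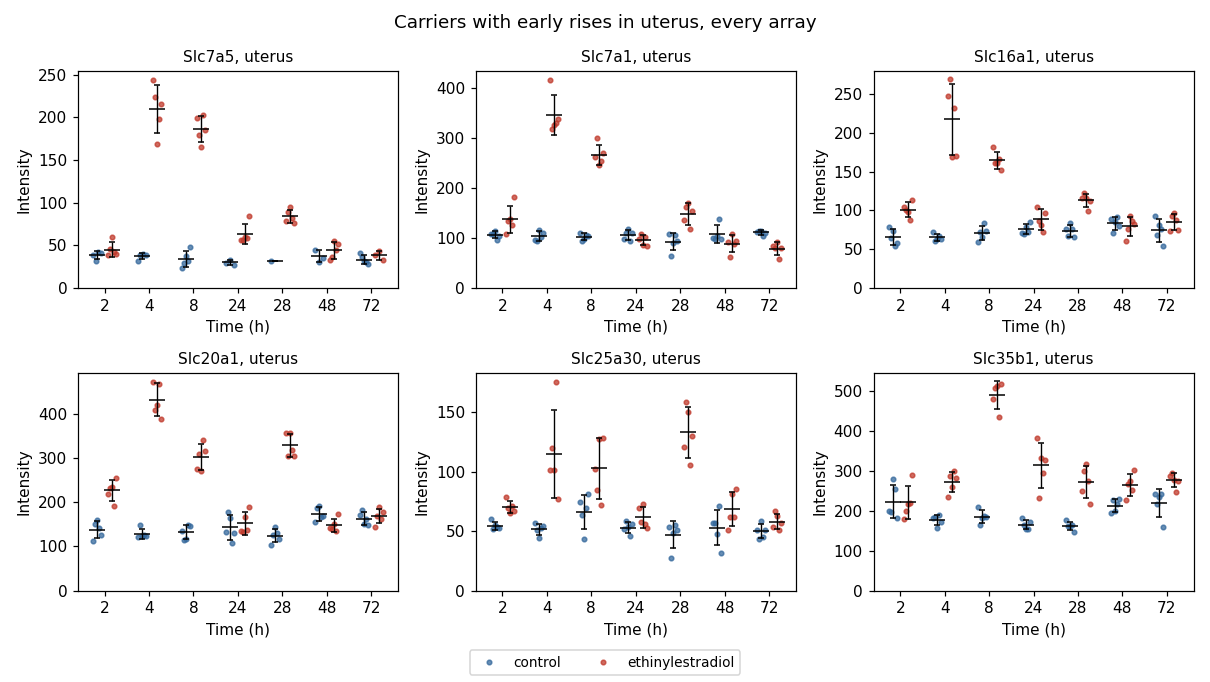
Intensity on every uterine array (points) by time in hours for Slc7a5, Slc7a1, Slc16a1, Slc20a1, Slc25a30 and Slc35b1, with group means and SD (black), control in blue and EE in red. Slc7a1, Slc20a1 and Slc25a30 are high at 4 h, near the control at 24 h and higher again at 28 h, where Slc20a1 reads 305 to 358 with EE and 104 to 145 in control.

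The promoters of 2 of these rising amino acid carriers are shown because they hold an 8-base sequence, TGATGNAA, that is known as the core of the composite element bound by C/EBP and ATF factors in genes of the amino acid response. Both are from RefSeq on the GRCr8 build, from 250 bases before the gene start to 50 after it, and the match is in capitals. Slc7a1 lies on the plus strand (chr12:11664238-11664537) with its match starting 30 bases before the start, and Slc38a1 on the minus strand (chr7:129681352-129681651) with its match starting 142 bases before it.
Slc7a1: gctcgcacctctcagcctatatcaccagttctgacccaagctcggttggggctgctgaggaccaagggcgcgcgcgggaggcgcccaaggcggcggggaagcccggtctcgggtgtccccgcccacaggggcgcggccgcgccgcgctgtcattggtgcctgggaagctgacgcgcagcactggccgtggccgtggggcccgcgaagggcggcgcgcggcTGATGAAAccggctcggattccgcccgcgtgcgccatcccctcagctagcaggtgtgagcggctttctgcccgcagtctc
Slc38a1: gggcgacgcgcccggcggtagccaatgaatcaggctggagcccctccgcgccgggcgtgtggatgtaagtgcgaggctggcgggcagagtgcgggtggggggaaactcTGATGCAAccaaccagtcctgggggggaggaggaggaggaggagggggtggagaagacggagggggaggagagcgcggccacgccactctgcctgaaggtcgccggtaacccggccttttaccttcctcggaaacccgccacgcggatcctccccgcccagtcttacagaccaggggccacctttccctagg
Of the 150 carriers, 124 were in the promoter table, with 135 promoters of 300 bases. Searched on both strands, 4 of the 135 (2.96%) held the sequence, against 1332 of all 33469 promoters (3.98%), so the share among carriers was no higher; the other carriers with a match were Slc49a4 and Slc23a3. An estrogen response element, searched as GGTCA and TGACC set 3 bases apart, was in none of the 135 carrier promoters and in 9 of all 33469 (0.0269%).

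Over the amino acid carriers as a group, 6 were higher and 4 lower of 15 tested at 4 h (against 23.6% and 34.4% of all genes) and 7 and 5 of 16 at 8 h (28.8% and 35.4%), so their lower calls were no more frequent than over all genes. At 72 h none of 15 was higher and 5 were lower (23.4% and 36.7% of all genes), a split that became 3 and 4 with arrays centred on their medians. The deepest fall was that of Slc1a3, the glutamate and aspartate carrier of glia and other cells. At 28 h it read 166, 179.8, 225, 226 and 421 in the controls and 45.1, 45.4, 45.9, 50.9 and 61.1 with EE, and 1 control array, replicate 50, stood far above the others. Without overlap between the groups, the difference was -1.71 ± 0.13 (limma adjusted p = 1.96e-17), 3.27-fold on this scale, and it was between -0.44 at 2 h and -1.37 at 72 h at the other times, passing at each; the 2 h call was lost when any of 5 arrays was left out. A second probe set of the gene fell at 4, 8, 24 and 28 h and was not tested later.

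Slc38a2, a carrier of small neutral amino acids, and Slc7a7, the exporter of basic amino acids, fell while the early group rose. Slc38a2 was lower, at -0.26 at 4 h, -0.64 at 8 h, -0.38 at 24 h and -0.47 at 28 h, all passing, and did not pass at 48 and 72 h. Slc7a7 was lower, at -0.28, -0.23, -0.48 and -0.40 at the same times, also all passing. The amino acid carriers therefore changed in opposite directions within the same hours.

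Phosphate and monocarboxylate uptake genes rose early as well. Slc20a1, a sodium-dependent phosphate importer, read 122, 123, 125, 125 and 148 in the 4 h controls and 389, 409.99, 420.2, 468 and 474 with EE. Every EE array was at least double every control array. The rise was 1.54 ± 0.09 (limma adjusted p = 3.11e-23) at 4 h, had reached 0.61 at 2 h, and was 1.04 at 8 h. At 24 h the controls read 109, 132, 132, 165 and 178 and the EE arrays 132, 135, 138, 167 and 189.7, so that the groups overlapped and the difference of 0.08 ± 0.09 did not pass. At 28 h the controls read 104, 117, 127, 130.4 and 145 and the EE arrays 305, 305, 319, 358 and 358, apart again, with a rise of 1.21 ± 0.09 (limma adjusted p = 1.13e-18). Its relative Slc20a2 differed by 0.18 at 8 h and -0.26 at 72 h, both passing.

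Slc16a1, the lactate and pyruvate carrier MCT1, read 60.1, 62.9, 63.8, 67.7 and 72.5 in the 4 h controls and 168, 169.9, 233, 248 and 269 with EE. The groups did not overlap, and 2 EE arrays lay below the other 3. The rise was 1.35 ± 0.09 (limma adjusted p = 2.92e-20), with 0.45 at 2 h, 0.95 at 8 h and 0.46 at 28 h, each passing; at 24, 48 and 72 h it did not pass. Slc16a3, the lactate exporter MCT4, could not be tested at 72 h because none of its control arrays had a value, while the EE arrays read 93.2, 140.04, 141, 145 and 218.

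Among the mitochondrial carriers rises outnumbered falls from 8 h on, with 8 higher and 4 lower of 18 at 8 h, 8 and 2 of 18 at 24 h, 9 and 3 of 18 at 28 h, 8 and 5 of 19 at 48 h and 6 and 4 of 17 at 72 h, where over all genes between 23.4% and 28.8% were higher and between 32.9% and 36.7% lower; at 4 h they were 6 and 7 of 19, and 7 and 6 with centred arrays. Under quantile normalization the counts were 6 and 6 at 48 h and 4 and 4 at 72 h. Slc25a5, an ADP/ATP exchanger of growing cells, read 739, 739.8, 741, 749.7 and 783 in the 24 h controls and 1409, 1437, 1509, 1527 and 1588 with EE. The EE arrays were close to double the controls. The rise was 0.96 ± 0.07 (limma adjusted p = 9.27e-18) and passed from 4 h (0.56) to 72 h (0.50). The controls themselves differed over time for this gene, with a limma adjusted p of 1.54e-06 over the 7 control groups.

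Slc25a1, which exports citrate for lipid synthesis, read 152, 156, 159, 169.7 and 184 in the control and 312, 327, 375, 409 and 412 with EE at 24 h. No EE array overlapped the controls. The rise was 1.02 ± 0.09 (limma adjusted p = 6.2e-16), up from 0.30 at 4 h and 0.43 at 8 h, and stayed at 0.66 at 72 h. Slc25a13, the aspartate/glutamate carrier citrin, read 25.3, 25.7, 32.5, 33.6 and 35.3 in the control and 76.7, 94.4, 95.3, 96.8 and 97.7 with EE at 8 h, a rise of 1.01 ± 0.09 (limma adjusted p = 2.23e-16) that was still 0.82 at 72 h. The abundant phosphate carrier Slc25a3 and ADP/ATP exchanger Slc25a4 rose by less, at most 0.48 and 0.49. Slc25a3 turned from 0.24 to -0.03 at 72 h under quantile normalization.

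Slc25a30, a mitochondrial carrier of the uncoupling protein group, rose at 4 h (0.79) and 8 h (0.45), not at 24 h (0.14), and again at 28 h. At 28 h its controls read 27.2, 48.8, 51.3, 53 and 55.4 and its EE arrays 105, 121, 130.2, 151 and 158. The groups were well apart, and 1 control array, again replicate 50, lay below the others. The rise was 1.08 ± 0.12 (limma adjusted p = 4.67e-12). The calcium-regulated carrier Slc25a25 rose by 0.35, 0.81 and 0.44 at 2, 4 and 8 h.

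Falls in this family were led by Slc25a36, a pyrimidine nucleotide carrier. It read 331, 377, 445, 478 and 489 in the 28 h controls and 151, 155, 167, 176 and 181 with EE. The groups did not overlap, and the difference was -1.20 ± 0.14 (limma adjusted p = 2.78e-11); it passed at each time from 4 to 72 h. Slc25a15, the ornithine carrier of the urea cycle, fell late, reading 152, 176, 192, 213 and 215 in the control and 57.7, 66.6, 73, 99.6 and 147 with EE at 72 h, with 1 EE array close under the controls and a difference of -0.92 ± 0.15 (limma adjusted p = 2.44e-07).

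Slc35b1, which exchanges ADP and ATP across the endoplasmic reticulum membrane, gave the largest rise of the nucleotide sugar family. It read 165, 182, 185, 185 and 209 in the 8 h controls and 433, 479.6, 507, 511 and 517 with EE. Every EE array was more than double every control array. The rise was 1.27 ± 0.10 (limma adjusted p = 3.15e-18), against 0.54 at 4 h, 0.80 at 24 h and 0.31 at 72 h. A second probe set rose by 0.70 at 8 h, 0.29 at 4 h and 0.29 at 24 h and did not pass at 28, 48 or 72 h. The UDP-xylose carrier Slc35b4 was lower at 4 h (-0.40) and higher at 72 h (0.41), and the GDP-fucose carrier Slc35c1 likewise (-0.28 and 0.46).

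Of the metal carriers 11 were higher and 4 lower of 21 at 4 h (23.6% and 34.4% of all genes), 9 and 4 of 21 at 8 h (28.8% and 35.4%), and 4 and 8 of 22 at 72 h (23.4% and 36.7%), or 7 and 8 at 72 h with centred arrays. The zinc importers Slc39a14 and Slc39a7 and the zinc exporter Slc30a5 rose at 4 h by 0.80, 0.53 and 0.68 and at 8 h by 0.79, 0.87 and 0.69. All 3 had left that level by 72 h, with 0.12, -0.45 and -0.26, the last 2 passing in the lower direction. The iron importer Slc11a2 rose by 0.25 to 0.32 at 4 and 8 h, and the copper importer Slc31a1 was higher from 4 h (0.45) to 72 h (0.46). Slc39a11 read 53.1, 56.8, 64.8, 69.1 and 72.9 in the 24 h controls and 116, 121, 131, 136 and 141 with EE, a rise without overlap of 0.77 ± 0.08 (limma adjusted p = 7.33e-13) that lasted to 72 h (0.67).

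Zinc importers also fell. Slc39a8, which brings zinc and manganese into the cell, read 83, 95.5, 96, 101 and 103 in the 72 h controls and 29.4, 36.1, 38.4, 42.9 and 49.8 with EE. All EE values were below all control values, with a difference of -0.86 ± 0.09 (limma adjusted p = 5.24e-12). Slc39a10 was lower from 4 h (-0.61) to 72 h (-0.72). The magnesium carrier Slc41a1 was higher at 4 h (0.39) and lower from 24 h on; at 72 h it read 117, 118, 119, 132 and 151 in the control and 58.1, 64.3, 70.8, 75.5 and 84.9 with EE, a difference of -0.64 ± 0.08 (limma adjusted p = 1.12e-10). Its relative Slc41a2 was higher from 4 to 72 h, at most by 0.59. Slc22a17, a receptor for the iron-binding protein lipocalin 2, read 169, 174, 187, 189.9 and 233 in the control and 78.6, 81.2, 88.3, 88.5 and 92.5 with EE at 8 h, a difference without overlap of -0.92 ± 0.08 (limma adjusted p = 3.6e-16).

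The other genes of metal handling were split: 4 were higher and 6 lower of 12 tested at 4 h (23.6% and 34.4% of all genes). Tfrc, the transferrin receptor that takes up iron, rose by 1.52 ± 0.10 at 4 h and 1.19 ± 0.10 at 8 h. Mt2A, a metallothionein that binds zinc and copper, rose by 0.96 at 4 h and 0.89 at 8 h and was lower at 48 h (-0.66) and 72 h. Heph, a ferroxidase that works with iron export, was lower at 4 h (-0.51), 8 h (-0.69), 24 h (-0.42) and 72 h (-0.65). These tests are the same limma comparisons, and all the values named here passed.

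Of the sodium, proton and calcium exchangers 0 were higher and 2 lower of 4 at 8 h, and of the bicarbonate, chloride and sulfate carriers 1 and 3 of 5 (28.8% and 35.4% of all genes); with so few genes these counts cannot be told apart from the share over all genes. Slc8a1, the sodium/calcium exchanger of the plasma membrane, read 311, 329, 341, 349 and 382 in the 8 h controls and 106, 106, 108, 131 and 139.99 with EE. Every control array was above double the highest EE array. The difference was -1.33 ± 0.07 (limma adjusted p = 1.61e-24) at 8 h and -0.89 at 4 h, and it was smaller at 24 h (-0.23) and 72 h (-0.42). The sodium/bicarbonate cotransporter Slc4a4 read 72.3, 77.1, 81.2, 88.4 and 91 in the control and 25.7, 26.3, 34.2, 40.3 and 44.5 with EE at 8 h, a difference without overlap of -0.81 ± 0.10 (limma adjusted p = 1.57e-10) that passed at each later time. The summed smooth muscle markers at 8 h were 10642 to 12019 in the control and 10741 to 11464 in the EE uterus. Of the 9 markers tested 1 was higher and 3 were lower (28.8% and 35.4% of all genes). Their part in these falls was not tested.

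Every call among the cation-chloride cotransporters was lower: 2 of 4 at 4 h, 1 of 3 at 8 h, 2 of 3 at 24 and 28 h and 3 of 4 at 48 and 72 h, where between 32.9% and 36.7% of all genes were lower from 4 h on. With centred arrays the 4 h calls were 1 higher and 1 lower. Slc12a7, a potassium/chloride cotransporter that lets cells lose volume, read 98.2, 100.1, 112, 126 and 130.4 in the 28 h controls and 50.2, 50.8, 56 and 57.1 on the 4 EE arrays with a value. The groups did not overlap, and the difference was -0.77 ± 0.09 (limma adjusted p = 2.35e-11); it passed from 4 to 72 h. Slc12a2, the sodium/potassium/chloride cotransporter NKCC1 of fluid secretion, read 208, 221, 223, 225 and 246 in the control and 86, 119, 123, 126 and 169 with EE at 28 h. Its difference of -0.74 ± 0.11 (limma adjusted p = 1.5e-08) had first passed at 4 h (-0.24), did not pass at 8 h (-0.05) and was -0.43 at 72 h.

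Members of the sodium pump moved apart. Its beta subunit Atp1b1 was lower at 4 h (-0.48) and 8 h (-0.34), and the other beta subunit Atp1b3 was higher at 4 h (0.55), 8 h (0.54), 24 h (0.57) and 72 h (0.92), all passing. Of the FXYD proteins that set the pump's affinity, Fxyd6 fell by 1.43 ± 0.08 at 8 h, and Fxyd3 was higher at 72 h (1.22 ± 0.31). Counted over the pump's genes, 2 were higher and 4 lower of 7 tested at 4 h (23.6% and 34.4% of all genes), and 3 and 2 of 7 at 72 h (23.4% and 36.7%).

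Late rises included those of a choline carrier and an anion exchanger. Slc44a4, a choline carrier of epithelia, read 60.4, 61.8, 70.2, 76.3 and 80.6 in the 72 h controls and 194, 209, 228, 242 and 251 with EE. Each EE array was more than double each control array. The rise was 1.35 ± 0.10 (limma adjusted p = 3.3e-19), a 2.54-fold change on this scale, after 0.10 at 8 h (not passing), 0.76 at 24 h and 1.25 at 48 h. Slc26a4, the chloride, iodide and bicarbonate exchanger pendrin, read 94.9, 97.1, 99, 103 and 107 in the control and 165, 194, 221, 272 and 334 with EE at 72 h. The EE arrays were spread widely and all lay above the controls, with a rise of 1.002 ± 0.17 (limma adjusted p = 8.2e-07); it was 0.90 at 48 h. The controls of Slc26a4 themselves differed over time, reading 33.7, 40.6, 42.7, 44.5 and 48.6 at 4 h (limma adjusted p = 0.000271 over the control groups). The epithelial and macrophage marker sums given above were also higher with EE at these times, 5016 to 7701 against 2149 to 3471 and 2428 to 2987 against 869 to 1234 at 48 h; their part in these rises was not tested.

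**Figure D3:**
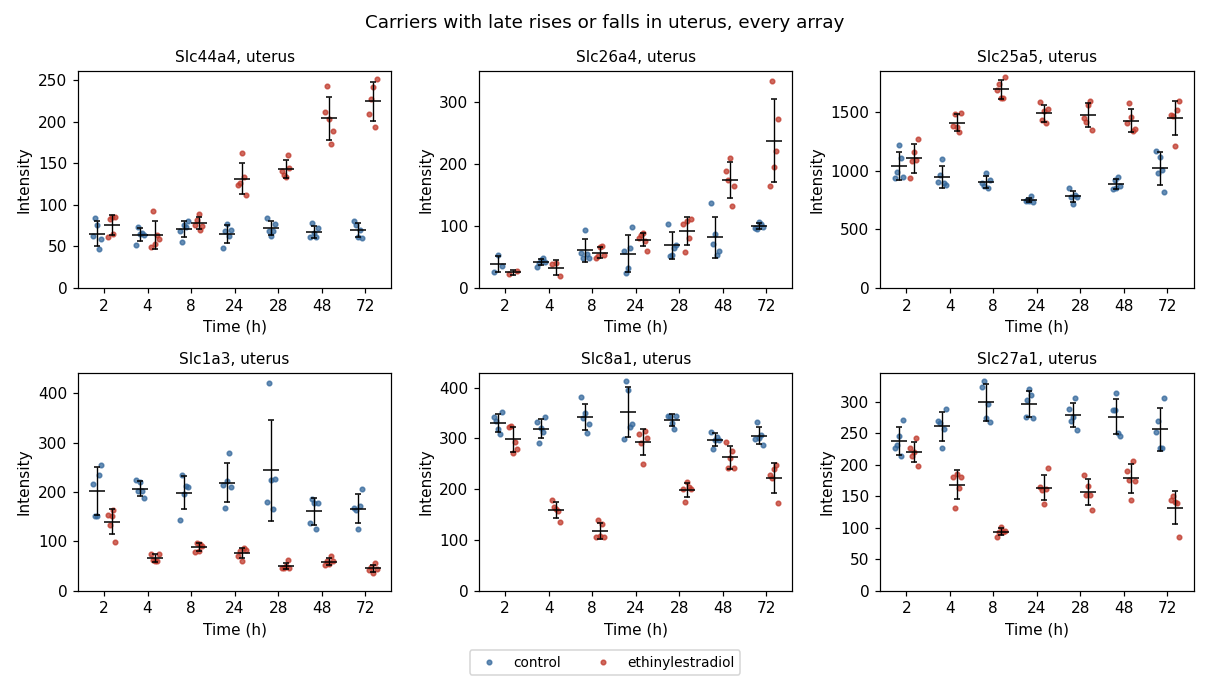
Intensity on every uterine array (points) by time in hours for Slc44a4, Slc26a4, Slc25a5, Slc1a3, Slc8a1 and Slc27a1, with group means and SD (black), control in blue and EE in red. Slc44a4 is above the controls from 24 h on and Slc26a4 at 72 h; Slc8a1 and Slc27a1 are lowest at 8 h, and 1 control array of Slc1a3 at 28 h reads 421.

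Of the sugar carriers 1 was higher and 3 lower of 5 at 4 h (23.6% and 34.4% of all genes), and 3 were higher and none lower of 5 at 48 h (24.1% and 32.9%) and at 72 h (23.4% and 36.7%). Slc50a1, a glucose carrier found mostly in the Golgi, read 96, 107, 112, 116 and 119.8 in the 8 h controls and 59.8, 63.4, 76.8, 78.2 and 83.4 with EE. At 72 h it read 86.6, 95.7, 96.1, 97.1 and 110.4 in the control and 159, 166, 189.5, 199 and 201 with EE. It did not overlap at either time, and turned from -0.46 ± 0.07 (limma adjusted p = 1.59e-08) to 0.74 ± 0.07 (limma adjusted p = 5.43e-15). The high-affinity glucose importer Slc2a3 read 33.5, 33.6, 37, 39.1 and 41.7 in the control and 56.1, 60.5, 72.8, 75.6 and 79.2 with EE at 72 h, a rise of 0.55 ± 0.08 (limma adjusted p = 6.62e-08), and Slc45a4 rose by 0.49 at 48 h and 0.40 at 72 h. The glucose-6-phosphate carrier Slc37a4 was lower at 4 h (-0.51) and 8 h (-0.40). All values named here passed.

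Of the partners and regulators, proteins that hold carriers at the membrane or switch them on, 3 were higher and 3 lower of 14 at 4 h (23.6% and 34.4% of all genes) and 7 and 1 of 13 at 72 h (23.4% and 36.7%); at 4 h the other 8 did not pass. Nherf1 and Ezr, which tie carriers to the actin skeleton under the apical membrane, were higher from 4 h (0.58 and 1.06) to 72 h (1.48 and 0.74). Sgk1, a kinase that raises the surface level of many carriers, rose by 1.08 ± 0.11 at 4 h and 0.67 at 8 h and stood at -0.01 at 24 h. The monocarboxylate carrier chaperones Bsg and Emb were lower at 4 h (-0.24 and -0.35) and higher at 72 h (0.40 and 0.63).

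Of the lipid, bile acid and organic ion carriers 0 were higher and 4 lower of 6 at 4 h (23.6% and 34.4% of all genes), and 0 and 3 of 4 at 8 h (28.8% and 35.4%). Slc27a1, a fatty acid transport protein, read 268, 275, 296, 324 and 333 in the 8 h controls and 85.9, 93.6, 93.9, 94.8 and 101 with EE. Each control array was more than double each EE array, and the difference of -1.40 ± 0.09 (limma adjusted p = 1.82e-21) was the largest fall of any tested carrier other than Slc1a3. Of the fat markers, Fabp4 had values on 39 of the 70 uterine arrays, Plin1 on 15, Cfd on 65 and Lep on none; their part in this difference was not tested. The nucleoside carrier Slc29a1 read 145, 151, 155, 172 and 192 in the control and 51.9, 55.5, 58.3, 59.2 and 61.5 with EE at 28 h, a difference without overlap of -1.14 ± 0.08 (limma adjusted p = 8.78e-19), whereas its relative Slc29a2 rose by 0.34 at 4 h. The peptide carrier Slc15a2 read 110.02, 111, 114, 119 and 145 in the control and, on the 3 EE arrays with a value, 26.6, 30.7 and 32.6 with EE at 28 h, a difference of -1.31 ± 0.10 (limma adjusted p = 4.82e-16); at 72 h it had values on all control arrays and on no EE array.

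The taurine carrier Slc6a6 read 121, 128, 128, 139 and 149.8 in the 48 h controls and 44.9, 58, 72, 77.9 and 82.7 with EE, a difference without overlap of -0.76 ± 0.12 (limma adjusted p = 1.98e-07) that passed from 4 h on. The creatine carrier Slc6a8 read 271, 305, 307, 318 and 355 in the control and 149.6, 154, 171, 178 and 182 with EE at 24 h, a difference of -0.79 ± 0.08 (limma adjusted p = 1.14e-12). A second Slc6a8 probe set did not share it: its difference was -0.08 at 24 h, 0.09 at 28 h and 0.08 at 72 h, none passing, and only at 48 h did it pass lower (-0.23). The heme carrier Slc48a1 read 138, 139, 149, 154 and 171 in the control and 72.8, 75.8, 75.9, 84.4 and 88.4 with EE at 4 h, a difference without overlap of -0.72 ± 0.07 (limma adjusted p = 1.35e-12). Over all carriers there were 65 values from further probe sets where the probe set used had passed. Of these 33 had the same direction and passed, 22 had the same direction without passing, 10 opposed it without passing, and 0 opposed it and passed.

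Of the transporters outside the Slc symbols 0 were higher and 9 lower of 11 tested at 24 h, against 24.9% and 34.3% of all genes. Abcc9, the sulfonylurea receptor subunit of potassium channels in muscle and vessels, fell by 1.28 ± 0.10 at 24 h and 0.99 at 72 h. The organic anion carrier Slco1a4 was lower, at -0.61 at 24 h and -0.82 at 72 h. The endothelial markers summed to 372 to 536 in the 24 h control and 285 to 333 in the EE uterus, with 3 of 4 tested lower; their part in these falls was not tested.

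**Figure D4:**
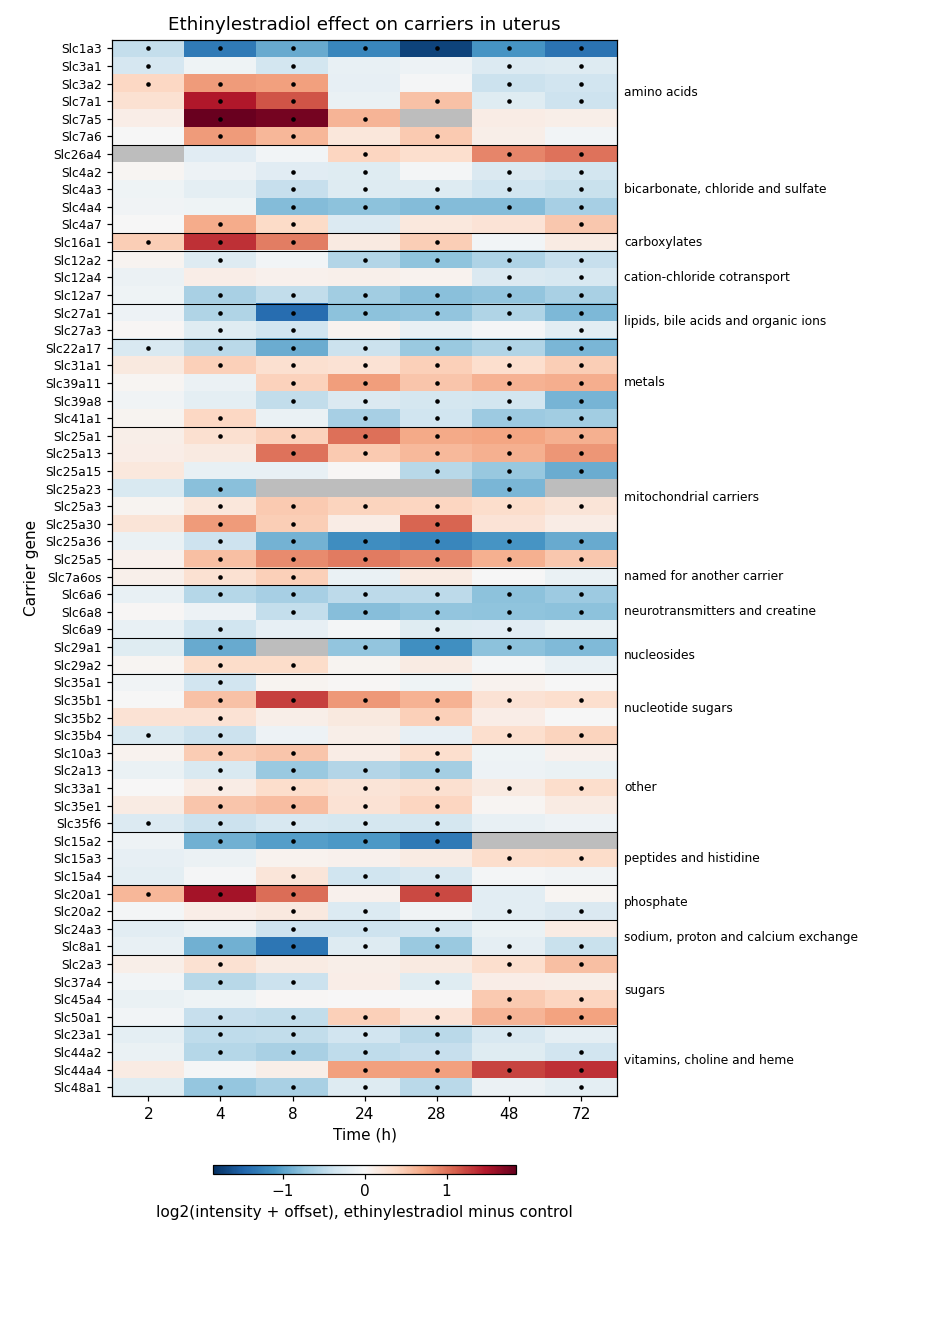
EE minus control on log2(intensity + 30.4) for 60 carriers in the uterus by time in hours, grouped by substrate; red is higher with EE, blue lower, grey not tested, and a dot marks adjusted p under 0.05. Slc7a5, Slc7a1, Slc16a1 and Slc20a1 are dark red at 4 h, Slc44a4 at 48 and 72 h, and Slc1a3 is blue in every column.

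Some carriers had values on all arrays of one group and on none of the other, which leaves no fold and no test, and no source used here gives the reason a cell is blank. Slc25a33, a pyrimidine nucleotide carrier of mitochondria, had no value on any control array at 4 and 8 h, and read 43.7, 46.6, 47.9, 48.2 and 51.9 with EE at 4 h and 29.8, 38.2, 38.8, 43.2 and 44.9 with EE at 8 h. The insulin-responsive glucose importer Slc2a4 read 83.1, 87, 97.1, 99.8 and 109 in the 8 h controls and was blank with EE. The vitamin C importer Slc23a2 read 134, 134, 135, 142 and 168 in the 24 h controls and was blank with EE at 24 and 48 h. The light chain Slc7a8 read 66.4, 71.3, 76.7, 78.8 and 105 in the 72 h controls and was blank with EE at 48 and 72 h. At 8 h the carnitine importer Slc22a5 read 56.2, 58.1, 59.3, 59.8 and 78.5 in the controls and was blank with EE. The EE arrays had more blank cells over all probe sets at 8 h, 38.2% ± 0.97 against 34.5% ± 0.84 (SD, n = 5 each, exact permutation test, two-sided, adjusted p = 0.0635), and the part of this in the blank carriers was not tested.

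The effect of EE on carriers differed over time. A limma F test found differences between times for 86 of 103 uterine carriers tested at every time, where 81.6% of all genes passed, and an effect at any time for 94 of 103, where 91.7% of all genes passed. Between 24 and 28 h, 10 of 117 carriers differed, 5 in each direction (5.1% and 3.15% of all genes, 8.25% in sum). The effect was greater at 28 h for Slc20a1 (1.14 ± 0.13, limma adjusted p = 4.91e-10), Slc25a30 (0.94 ± 0.17, limma adjusted p = 4.41e-05), Slc7a1 (0.66 ± 0.13, limma adjusted p = 0.000377), Slc39a14 (0.45 ± 0.11, limma adjusted p = 0.00485) and Slc39a13 (0.35 ± 0.11). The first 4 of these had been higher at 4 h as well. It was lower at 28 h for Slc8a1 (-0.45 ± 0.10), Slc29a1 (-0.41 ± 0.11), Slc25a10, Slc37a4 and Slc41a3. The labels do not say whether a further dose was given between these times.

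Between 8 and 72 h, 58 of 108 carriers differed, 25 with a greater and 33 with a smaller effect at 72 h (25.7% and 29.4% of all genes, 55.1% in sum). The effect fell most for the amino acid carriers Slc7a5 (-1.66 ± 0.14, limma adjusted p = 5.5e-15), Slc7a1 (-1.54 ± 0.13, limma adjusted p = 1.41e-15), Slc3a2 (-1.12 ± 0.10) and Slc1a5 (-1.12 ± 0.15), with the zinc carrier Slc39a7 (-1.33 ± 0.24) and the mitochondrial glutamate carrier Slc25a22 (-1.19 ± 0.14). It grew most for Slc44a4 (1.24 ± 0.13, limma adjusted p = 4.49e-12), Slc50a1 (1.19 ± 0.09, limma adjusted p = 3.54e-17), Slc26a4 (1.05 ± 0.24) and Slc8a1 (0.91 ± 0.10), the last going from -1.33 at 8 h to -0.42 at 72 h. Among the control arrays alone 36 of 119 carriers differed over the 7 times (32.6% of all genes), Slc25a5, Slc12a7 and Slc3a2 among those with the smallest p.

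Without EE the tissues differed in most carriers, 36 being higher and 42 lower in the uterus of 93 tested (39% and 47.5% of all genes, 86.5% in sum). Slc24a3, a potassium-dependent sodium/calcium exchanger, had a mean of 486 ± 70.9 (SD, n = 35) in control uterus and 69 ± 8.91 (n = 15) in control pituitary, a difference of 2.35 ± 0.06 (limma adjusted p = 1.35e-56). The ornithine carrier Slc25a15 (1.54), the zinc importer Slc39a1 (1.43), the choline carrier Slc44a2 (1.40) and the anion exchanger Slc4a2 (1.39) were also higher in uterus. The heavy chain Slc3a1 was 47.6 ± 8.38 on the 33 uterine control arrays with a value and 218 ± 63.1 (n = 15) in pituitary, a difference of -1.65 ± 0.06 (limma adjusted p = 1.67e-38), and the taurine carrier Slc6a6 was lower in uterus, with a difference of -1.38. The vesicular glutamate carrier Slc17a6 and the sodium/bicarbonate carrier Slc4a10 had values on all 15 control arrays of the pituitary and on none of the 35 of the uterus, while Slc29a1, Slc12a4, Slc45a4 and the glycine carrier Slc6a9 had the reverse.

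In the pituitary few carriers passed. At 4 h 1 was higher and 1 lower of 121 tested (1.06% and 0.425% of all genes, 1.48% in sum), and at 8 h 3 and 0 of 113 (1.74% and 1.83% of all genes, 3.57% in sum). None of 119 passed at 24 h (0.0292% and 0.0731% of all genes, 0.102% in sum) and none of 117 at 48 h (0.219% and 0.102% of all genes, 0.322% in sum). At 72 h 3 were higher and 4 lower of 113 (1.74% and 0.936% of all genes, 2.67% in sum). Over all times 8 of 107 carriers had an effect at any time by the F test (6.46% of all genes), 0 differed between times (1.1%), and 1 of 112, Slc20a1, had a lower effect at 72 h than at 4 h (0.385% and 0.339% of all genes, 0.723% in sum). Among the control arrays 1 of 111 differed over time (1.6%). At an unadjusted p under 0.05 limma gave 13 of 121 at 4 h, 28 of 113 at 8 h, 10 of 119 at 24 h, 8 of 117 at 48 h and 27 of 113 at 72 h. Slc7a7, the basic amino acid exporter that had fallen in the uterus, was the only carrier to pass at more than 1 time. It read 70.3, 73.3 and 89.7 in the 4 h controls and 138, 145 and 156 with EE, 62.2, 81.1 and 87.1 in control and 118, 126 and 126 with EE at 8 h, and 90.8, 106 and 109.9 in control and 164, 165 and 181 with EE at 72 h. All 3 EE arrays were above all 3 controls at each of these times, and at 24 and 48 h as well. The rise was 0.71 ± 0.11 (limma adjusted p = 0.000331) at 4 h, 0.53 ± 0.11 (limma adjusted p = 0.00884) at 8 h and 0.60 ± 0.11 (limma adjusted p = 0.00246) at 72 h, and it was 0.44 and 0.44 at 24 and 48 h without passing. The 4 and 72 h calls were kept under every alternative and omission run, and the 8 h call was lost with only the compared groups in the fit.

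At 4 h Slc8a1 fell in the pituitary too, from 133, 144 and 145 to 86.9, 99.3 and 119, a difference of -0.38 ± 0.09 (limma adjusted p = 0.0248). At 8 h Slc25a5 rose from 773, 808 and 827 to 969, 1056 and 1132, by 0.38 ± 0.08 (limma adjusted p = 0.00984), and Slc30a3, a zinc exporter of vesicles, rose by 0.59 ± 0.15 with a value on 2 of the 3 EE arrays. Neither Slc25a5 nor Slc8a1 passed in the pituitary at another time. Both moved in the same direction as in the uterus at the same hour, but by less. Slc8a1 differed by -0.89 in the uterus at 4 h and Slc25a5 by 0.88 at 8 h. The difference between tissues passed for both (limma adjusted p = 0.000391 and 0.00012). The Slc8a1 call was lost without control replicate 16 or 18 or EE replicate 20 or 23. Neither call was kept with only the compared groups in the fit.

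At 72 h Slc50a1 read 109, 119.98 and 131 in the controls and 171, 179 and 202 with EE, a rise of 0.51 ± 0.12 (limma adjusted p = 0.0211). Slc4a10 read 77.7, 79.6 and 81.7 in the control and 20.7, 27.8 and 60.9 with EE, with 1 EE array much nearer the controls, a difference of -0.76 ± 0.19 (limma adjusted p = 0.0211). Slc12a7 fell by 0.35 ± 0.09, Slc35e3 fell by 0.30 ± 0.07, and Slc35b1 rose by 0.33 ± 0.09, although its second probe set stood at -0.05 without passing. Slc4a1, the anion exchanger of red blood cells, read 65.3, 71 and 78.9 in the control and 24.5, 31.9 and 38.6 with EE, a difference of -0.72 ± 0.18 (limma adjusted p = 0.0383). The blood cell markers Hbb, Alas2 and Ahsp summed to 6517 to 7277 in the 72 h control pituitaries and 4965 to 5738 with EE, and neither of the 2 that could be tested passed; their part in the fall was not tested. These 72 h calls rested on each single array: leaving out any 1 of the 6 cut the 7 calls to between 1 and 3, and the 8 h count went from 3 to 10 without EE replicate 33, to 5 without control replicate 30 and to 1 without EE replicate 34.

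**Figure D5:**
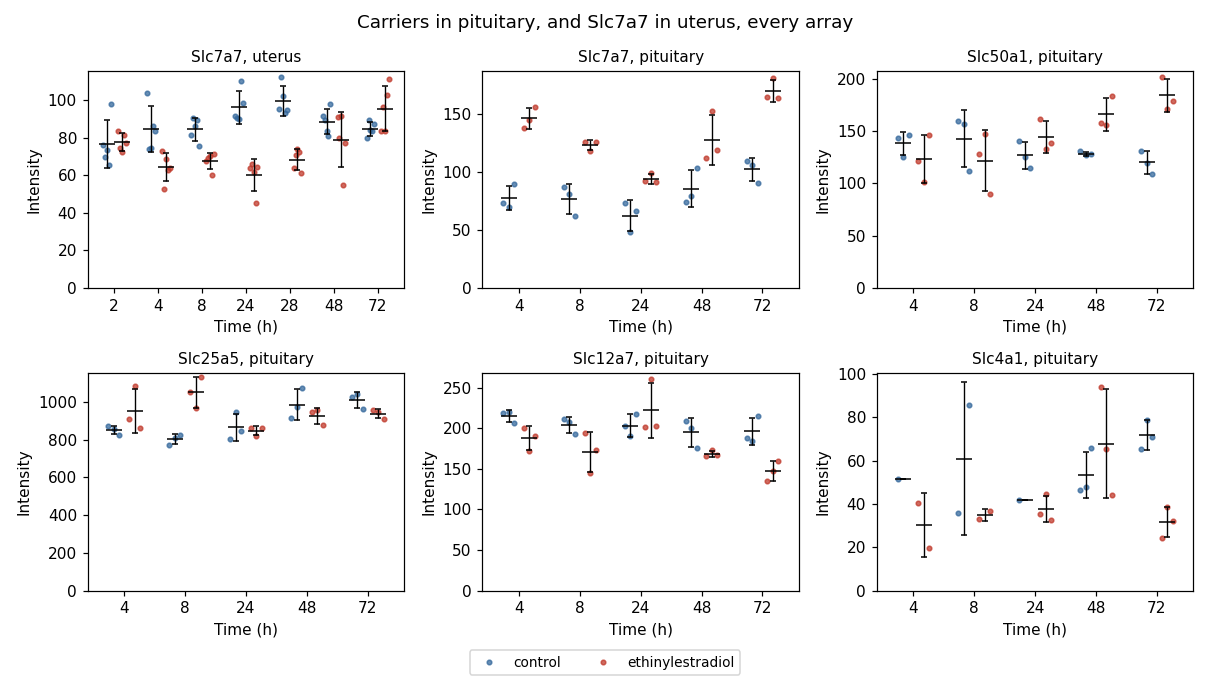
Intensity on every array (points) by time in hours for Slc7a7 in uterus and for Slc7a7, Slc50a1, Slc25a5, Slc12a7 and Slc4a1 in pituitary, with group means and SD (black), control in blue and EE in red. In the pituitary every EE array of Slc7a7 lies above every control array of its time, and in the uterus its EE arrays lie below the controls at 24 and 28 h.

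The effect of EE on a carrier was set against that in the other tissue at the shared times. At 4 h 25 carriers had a higher and 17 a lower effect in the uterus of 97 tested (15.2% and 18.5% of all genes, 33.7% in sum), and at 8 h 25 and 24 of 95 (22.5% and 25.4% of all genes, 47.9% in sum). At 24 h the counts were 15 and 21 of 98 (17.9% and 22.3% of all genes, 40.1% in sum), at 48 h 12 and 17 of 98 (15% and 21.3% of all genes, 36.3% in sum) and at 72 h 15 and 21 of 92 (14.5% and 24.1% of all genes, 38.6% in sum). Under quantile normalization the 4 h split was 26 and 11. For Slc7a7 the effect in the uterus was lower, at -0.99 ± 0.13 (limma adjusted p = 1.56e-09) at 4 h, -0.76 ± 0.13 (limma adjusted p = 6.54e-07) at 8 h and -0.92 ± 0.13 (limma adjusted p = 1.36e-08) at 24 h, and -0.58 ± 0.13 and -0.47 ± 0.13 at 48 and 72 h, both passing. Slc35e3 was the other carrier that passed in opposite directions, higher in the uterus (0.22) and lower in the pituitary at 72 h.

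Large early uterine rises exceeded the pituitary effect at the same hour, as for Slc20a1, Slc7a1 and Slc16a1 at 4 h. Not every early rise did so: for Slc39a7, Slc11a2 and Slc29a2 the difference between tissues did not pass at 4 h. For Slc20a1 the difference between tissues was 1.18 ± 0.14 (limma adjusted p = 6.05e-11) at 4 h, where the pituitary arrays read 121, 137 and 144 in control and 171, 173 and 198 with EE, apart but with an effect of 0.36 that missed the threshold (limma adjusted p = 0.0511). For Slc7a1 it was 1.20 ± 0.15 (limma adjusted p = 3.44e-10) and for Slc16a1 1.01 ± 0.16 (limma adjusted p = 2.16e-07), with pituitary effects of 0.28 and 0.34. The late rise of Slc44a4 exceeded its pituitary effect by 1.36 ± 0.16 (limma adjusted p = 4.47e-11) at 72 h, and for Slc1a3 the difference between tissues was -1.46 ± 0.22 (limma adjusted p = 1.1e-07). Slc7a5 could not be compared because its probe set had values on too few pituitary arrays.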

How the data were processed

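RNA was extracted, biotin-labelled and hybridised to rat expression arrays, 1 array per sample, per the labels' protocols. The authors' deposited values are linear intensities, 1 per probe set and array, with 37.2% of cells blank; the sources used here do not state their summarisation, scaling or why cells are blank. Blank cells were treated as missing, values were analysed as log2(intensity + 30.4), the offset being the 10th percentile of all deposited intensities, and no further scaling was applied. Where a gene had several single-gene probe sets, a qualifying one with the highest mean was used. All groups of a tissue, or of both for comparisons between tissues, were fitted across all genes with limma 3.58.1 in R 4.3.3, with Benjamini-Hochberg adjustment over all genes tested; the script was tested on simulated data. A gene was tested where at least 3 of 5 uterine or 2 of 3 pituitary arrays of both groups had a value. Values on every array are given, per tissue, for the 4 carriers with the smallest F adjusted p in each substrate group among those with an effect at any time, and, per comparison, for the 4 largest rises and 4 largest falls that passed without overlap between groups, in all 60 carriers of the uterus and 10 of the pituitary. Carriers blank throughout one group, and Slc20a1 in the pituitary, were added after their values were seen; others are named by their differences. Alternatives were an offset of 1, centring, quantile normalization, other minimums of values, every probe set, only the compared groups, a replicate block and leaving out each array. The carriers, lists and tests were chosen with earlier results of these data known.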

Additional observations from a re-analysis of the deposited data

Results flagged for a closer look

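Single arrays stood far from the rest of their group in 11 of the 143 uterine groups of values examined. This was judged by the gap to the nearest array as a share of the group's range, where chance alone gives about 1 in 20. The 143 include the blank share and the median intensity of the arrays beside the named carriers, and all 11 were carrier values. Each named carrier was examined only at the time of its largest difference, and the groups share arrays. The share of 1 in 20 is therefore only a rough guide. Among the 28 h controls, replicate 50 was the far array for Slc1a3 (421, others 166 to 226), Slc15a2 (145, others 110.02 to 119) and Slc25a30 (27.2, others 48.8 to 55.4). Among the 8 h arrays Slc35e1 read 60.0 on control replicate 27 and 95.1 on EE replicate 34, each below its group, and Slc25a13 read 76.7 on EE replicate 32 (others 94.4 to 97.7). At 4 h Slc20a1 read 148 on control replicate 15 and Slc7a1 read 416 on EE replicate 19, both above their groups. At 72 h Slc12a4 read 55.3 on control replicate 78 and Slc20a2 read 50.6 on control replicate 76, both below, and at 24 h Slc25a5 read 783 on control replicate 41, above.

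The effect of EE was compared between uterus and pituitary by limma's test of that difference, with adjusted p under 0.05. It differed for 42 of 97 carriers at 4 h (33.7% of all genes) and 49 of 95 at 8 h (47.9%). At 24 h it differed for 36 of 98 (40.1%), at 48 h for 29 of 98 (36.3%) and at 72 h for 36 of 92 (38.6%). Carriers that passed in each tissue with opposite signs were Slc7a7 at 4 h (uterus minus pituitary -0.99) and 8 h (-0.76) and Slc35e3 at 72 h (0.52). Over time, the effect in the uterus differed between 24 and 28 h for 10 of 117 carriers (8.25% of all genes). Between 8 and 72 h it differed for 58 of 108 (55.1%), and among all 7 times for 86 of 103 (81.6%). In the pituitary 1 of 112 carriers, Slc20a1, differed between 4 and 72 h (0.723% of all genes).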

How the results depend on the processing

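Of 267 calls of named carriers, 230 were kept under every alternative and with every single array left out; 33 were lost with some array left out and 28 under some alternative. These carriers were chosen for small p or large differences in the same data, so the counts do not describe the calls of other carriers. With only the compared groups in the fit, the carriers that passed went from 11 to 6 in the uterus at 2 h, from 2 to 1 in the pituitary at 4 h and from 3 to 0 at 8 h. The pituitary difference between 72 and 4 h went from 1 carrier to 0 with an offset of 1, with centred arrays and with quantile normalization, and the count that differed between pituitary times went from 0 to 1 with centred arrays and with quantile normalization. Slc25a3 at 72 h in the uterus reversed to -0.032 (limma adjusted p = 0.628) under quantile normalization. The cause of these changes was not tested. With single arrays left out, the counts ranged from 5 to 15 in the uterus at 2 h, and in the pituitary from 1 to 3 at 4 h, 1 to 10 at 8 h, 0 to 1 at 48 h, 1 to 3 at 72 h, 5 to 13 at any time, 0 to 3 between times, 0 to 1 for 72 against 4 h and 0 to 2 for control over time. The pituitary counts at 4 h were 1 without control replicates 16 or 18 or EE replicates 20 or 23, and the count at any time was 13 without the 8 h EE replicate 33 and 5 without the 72 h EE replicate 81. Title numbers are shared between the tissues: the deviations of 27 same-numbered pairs correlated with a median r of 0.060, 8 of them over 0.1. Of the 27 pairs, 20 had a positive r. Within a group of 3 pituitary arrays a positive r went with a negative mean r for the other arrays, such as 0.153 and -0.0922. Exceeding that mean therefore added nothing to the sign of r. The number of pairs with a positive r is a weak hint that the numbers may mark shared animals. No label states it and not every pair was over 0.1, so the comparisons were made without the block. With the number as a replicate block, only the 27 same-numbered pairs were used, as differences between tissues. At 48 h 18 of 93 carriers tested then differed (9 higher, 9 lower), against 29 of 98 (12 and 17) with all arrays. The other block counts stayed within 1.5 times. The part of the pairing and that of the uterine arrays left out cannot be told apart in this change. The minimum of 2 values per group was not run for the pituitary, where it already applies. The number of arrays limits the precision, most of all in the pituitary with 3 per group.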
